A study of Mus musculus with 31 samples.

Results

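The 7 striated muscle myosin heavy chain genes Myh1, Myh2, Myh3, Myh4, Myh6, Myh7 and Myh8 were followed in masseter muscle (MM), the jaw-closing muscle, of 31 mice. They were taken by symbol from the 22609 genes counted in every library, and all 7 were found. All mice were male C57BL/6J and gave 1 bulk library each from the injected left MM. Complete Freund's adjuvant (CFA), an emulsion that provokes inflammation, had been injected in 3 mice sampled at 1d and 3 mice sampled at 5d, with 3 mice of a CFA vehicle group. Collagenase type 2 (Col), an enzyme that degrades extracellular matrix, had been injected at 0.2U in 4 mice of a group labelled 1C and 4 mice of a group labelled RPC, whose days the labels do not give. At 10U, Col had been injected in 4, 3 and 4 mice, labelled 2d, 6d and 12d, and 3 mice labelled Contr received vehicle. The Contr label names no experiment, and this group served as the reference for both Col doses. For the first and last 10U groups the study's text gives days that differ from the labels, and the days of the labels are used. The collection day of neither vehicle group is given, so age and handling day cannot be told apart from treatment.

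Myosin heavy chain is the motor protein of the thick filament, and the isoform a fibre carries largely sets how fast it contracts. Adult limb and jaw muscles of the mouse use Myh4 (type IIb, the fastest), Myh1 (type IIx) and Myh2 (type IIa) in fast fibres and Myh7 in slow fibres, while Myh7 and Myh6 are also the beta and alpha chains of the heart. Myh3 (embryonic) and Myh8 (neonatal) are used before and shortly after birth, and newly formed fibres use them again when adult muscle regenerates. The mouse masseter is known as a muscle of almost wholly fast fibres.

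The 5 skeletal genes lie side by side on the plus strand of chromosome 11 in build mm9, in the order Myh3 (chr11:66891802-66915793), Myh2 (chr11:66984529-67011019), Myh1 (chr11:67013554-67038078), Myh4 (chr11:67051314-67073948) and Myh8 (chr11:67090626-67122136). Myh6 (chr14:55560758-55585764) and Myh7 (chr14:55589525-55613471) lie on the minus strand of chromosome 14. Their coding sequences are so alike that some reads fit more than 1 member. Coding identity was 91.1% between Myh1 and Myh2, 90.2% between Myh1 and Myh4 and 91.6% between Myh6 and Myh7, while Myh3 was 76.7% to 81.1% identical to the others. The following 50 coding bases (coding positions 3633 to 3682 of Myh1, exon 27 of 40) are shown because a read of this length from them cannot be told apart among the 5 genes of chromosome 11. Capitals mark the 3 bases at which Myh6 and Myh7 differ from Myh1.
Myh1: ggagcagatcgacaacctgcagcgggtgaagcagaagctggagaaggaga
Myh2: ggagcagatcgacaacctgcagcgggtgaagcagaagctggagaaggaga
Myh3: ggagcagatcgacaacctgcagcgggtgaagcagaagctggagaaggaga
Myh4: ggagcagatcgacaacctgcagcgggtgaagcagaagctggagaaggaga
Myh8: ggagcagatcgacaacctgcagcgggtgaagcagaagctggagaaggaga
Myh6: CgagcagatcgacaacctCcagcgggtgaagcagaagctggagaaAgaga
Myh7: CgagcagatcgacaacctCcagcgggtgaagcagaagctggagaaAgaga

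Reads that aligned to more than 1 place were left out of the counts, so a read lying wholly within such a stretch is not counted. Of all windows of 50 bases in the member's transcript, the share also present in the transcript of another gene was 26.9% for Myh2, 26.7% for Myh1, 22.8% for Myh6, 22.2% for Myh7, 21.4% for Myh8, 18.9% for Myh4 and 4.81% for Myh3. Myh3 was thus the member whose counts had the least to lose. A read with a sequencing error that turns 1 paralog's base into another's can still be counted on the wrong member, and this was not tested. No member shared exon bases with another gene of the count tables.

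**Figure D1:**
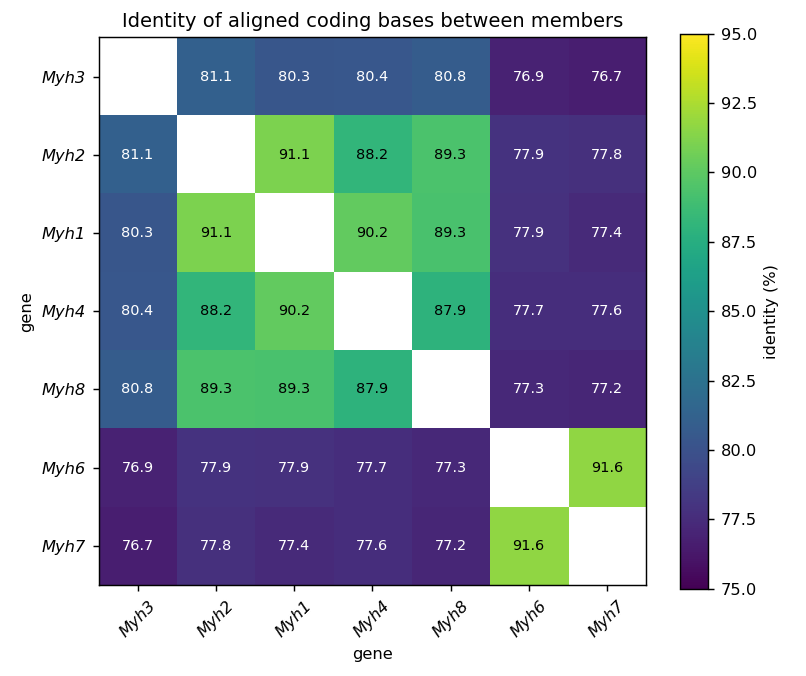
Coding sequence identity in percent between each pair of the 7 members, with members along both axes and colour and numbers giving the identity. Myh3 is at 76.7% to 81.1% with every other member, while Myh1 and Myh2 (91.1%) and Myh6 and Myh7 (91.6%) are the closest relatives.

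The promoters of the 3 members with the largest shifts in the comparisons, Myh3, Myh8 and Myh4, and of the neighbour Myh1 are shown from 250 bases before to 50 bases after the start of the transcript, from RefSeq on build GRCm38.p6, 5′ to 3′ on the plus strand. Capitals mark the letters of 4 muscle promoter elements searched on both strands: the E-box CANNTG, to which myogenic factors of the MyoD family bind, the MCAT element CATTCC of the TEAD factors, the MEF2 box and the CArG box of SRF.
Myh3: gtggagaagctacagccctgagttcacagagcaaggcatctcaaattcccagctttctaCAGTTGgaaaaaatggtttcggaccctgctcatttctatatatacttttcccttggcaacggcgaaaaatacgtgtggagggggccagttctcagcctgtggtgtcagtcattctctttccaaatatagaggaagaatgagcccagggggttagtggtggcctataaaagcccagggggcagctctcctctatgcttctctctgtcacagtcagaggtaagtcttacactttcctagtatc
Myh8: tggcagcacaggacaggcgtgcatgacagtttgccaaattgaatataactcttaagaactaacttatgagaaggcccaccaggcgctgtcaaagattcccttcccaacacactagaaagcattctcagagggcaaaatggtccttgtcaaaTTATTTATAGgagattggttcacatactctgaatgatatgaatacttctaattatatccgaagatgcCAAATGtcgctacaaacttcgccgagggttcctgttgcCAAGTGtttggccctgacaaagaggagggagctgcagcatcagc
Myh4: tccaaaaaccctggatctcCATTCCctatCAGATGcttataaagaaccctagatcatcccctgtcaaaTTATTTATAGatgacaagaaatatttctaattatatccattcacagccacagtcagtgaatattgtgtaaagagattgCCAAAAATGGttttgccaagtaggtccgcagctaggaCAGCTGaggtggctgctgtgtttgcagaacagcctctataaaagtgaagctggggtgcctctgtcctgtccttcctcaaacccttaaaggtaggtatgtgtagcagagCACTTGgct
Myh1: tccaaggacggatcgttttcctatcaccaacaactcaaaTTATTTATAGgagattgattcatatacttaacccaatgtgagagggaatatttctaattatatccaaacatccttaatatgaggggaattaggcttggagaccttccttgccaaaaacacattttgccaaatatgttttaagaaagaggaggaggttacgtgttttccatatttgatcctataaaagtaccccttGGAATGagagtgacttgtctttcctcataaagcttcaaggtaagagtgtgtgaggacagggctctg

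The Myh4 window held all 4 kinds of element: 3 E-boxes at −221, −67 and 42 from the start, an MCAT at −231, a MEF2 box at −182 and a CArG box at −104. The Myh8 window held E-boxes at −32 and 7 and a MEF2 box at −99, and the Myh1 window a MEF2 box at −211 and an MCAT at −16. The MEF2 box of Myh8, Myh4 and Myh1 was the same word of 10 letters. Myh3 held only 1 of these words, an E-box at −191, and Myh2 held none. Of 32851 mouse promoters of this length, 72.3% held an E-box, 14.7% an MCAT, 3.19% a MEF2 box and 1.63% a CArG box. These matches describe letters and not bound sites.

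The libraries held 14843778 to 29076671 counts on genes (median 20834472). Values per mouse are given as CPM, counts scaled by TMM to a library of 1000000, and as shares of the summed counts of the 7 members. Together the members took 0.771% to 3.59% of all gene counts, and their summed counts ranged from 125359 to 1044464. Nearly all of it was adult fast: Myh4, Myh1 and Myh2 together made 62.7% to 99.5% of the member counts (median 97.98% over 31 mice). Myh3 and Myh8 together made 0.515% to 37.3% (median 2.00%), and Myh6 and Myh7 together 0.000388% to 0.0271%. Adult fast chains led in every mouse. The 5 heart chamber markers summed to 0.572 to 4.53 CPM over all mice, and 1 to 3 of them were at 0 in every mouse of each group. In bulk tissue, fewer fibres of a type and less RNA per fibre cannot be told apart.

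Library composition differed between mice. Salivary gland markers summed to 90.9 to 146505 CPM in the Contr mice, 49.2 to 118723 at 2d, 11.01 to 33.6 at 6d, and 37.3 to 626 at 12d of 10U Col, and to 131420 to 165513 CPM in the CFA 5d mice against 106 to 15020 in CFA vehicle. Macrophage markers summed to 1101 to 2212 CPM at 6d against 84.8 to 371 in Contr, and fibroblast markers to 8329 to 13584 CPM against 1122 to 6090. The pan-striated muscle markers summed to 62016 to 103891 CPM in Contr, 30800 to 45233 at 2d, 34870 to 47426 at 6d and 37808 to 82243 at 12d. The part of these shifts in the member levels was tested only by the added fits named below. Ambiguous reads are those placed where annotated genes overlap, and do not include reads that aligned to more than 1 place. Of gene counts and ambiguous reads together, they made 0.675% to 0.875% in the 11 libraries of 10U Col. In the other 20, Contr included, they made 0.147% to 0.317%. No member shared exon bases with another counted gene in the annotation used here. The part of ambiguous reads in the differences between 10U Col and Contr was not tested. Replicate 4 of the 12d group stood apart from the other 3 mice of its group, with macrophage markers at 794 CPM (others 93.3 to 217) and fibroblast markers at 13480 CPM (others 2703 to 4685). Replicate 4 of the 2d group differed from its group mates as well, with Myh1 at 8154 CPM against 3157 to 3501.

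Myh3, the embryonic chain, moved most. In the 3 Contr mice it was at 18.0, 23.6 and 18.5 CPM. At 2d post-Col (10U) it was at 5.83, 7.64, 7.10 and 2.81 CPM, at 6d at 787, 868 and 460 CPM, and at 12d at 8.53, 16.7, 16.5 and 159 CPM. All 3 mice at 6d lay far above every other mouse of the series, the 2d mice lay below every Contr mouse, and at 12d 3 mice lay below the Contr range while replicate 4 lay above it. In the CFA experiment Myh3 was at 4.42, 3.42 and 3.11 CPM in vehicle, 17.9, 3.06 and 3.39 at 1d, and 16.1, 18.8 and 24.3 at 5d. With 0.2U Col it was at 13.2, 17.9, 2.44 and 3.24 CPM in 1C and 11.4, 21.0, 13.1 and 13.5 in RPC, where the RPC range overlaps Contr. The 2 vehicle groups did not overlap: Contr mice were all above CFA vehicle mice.

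**Figure D2:**
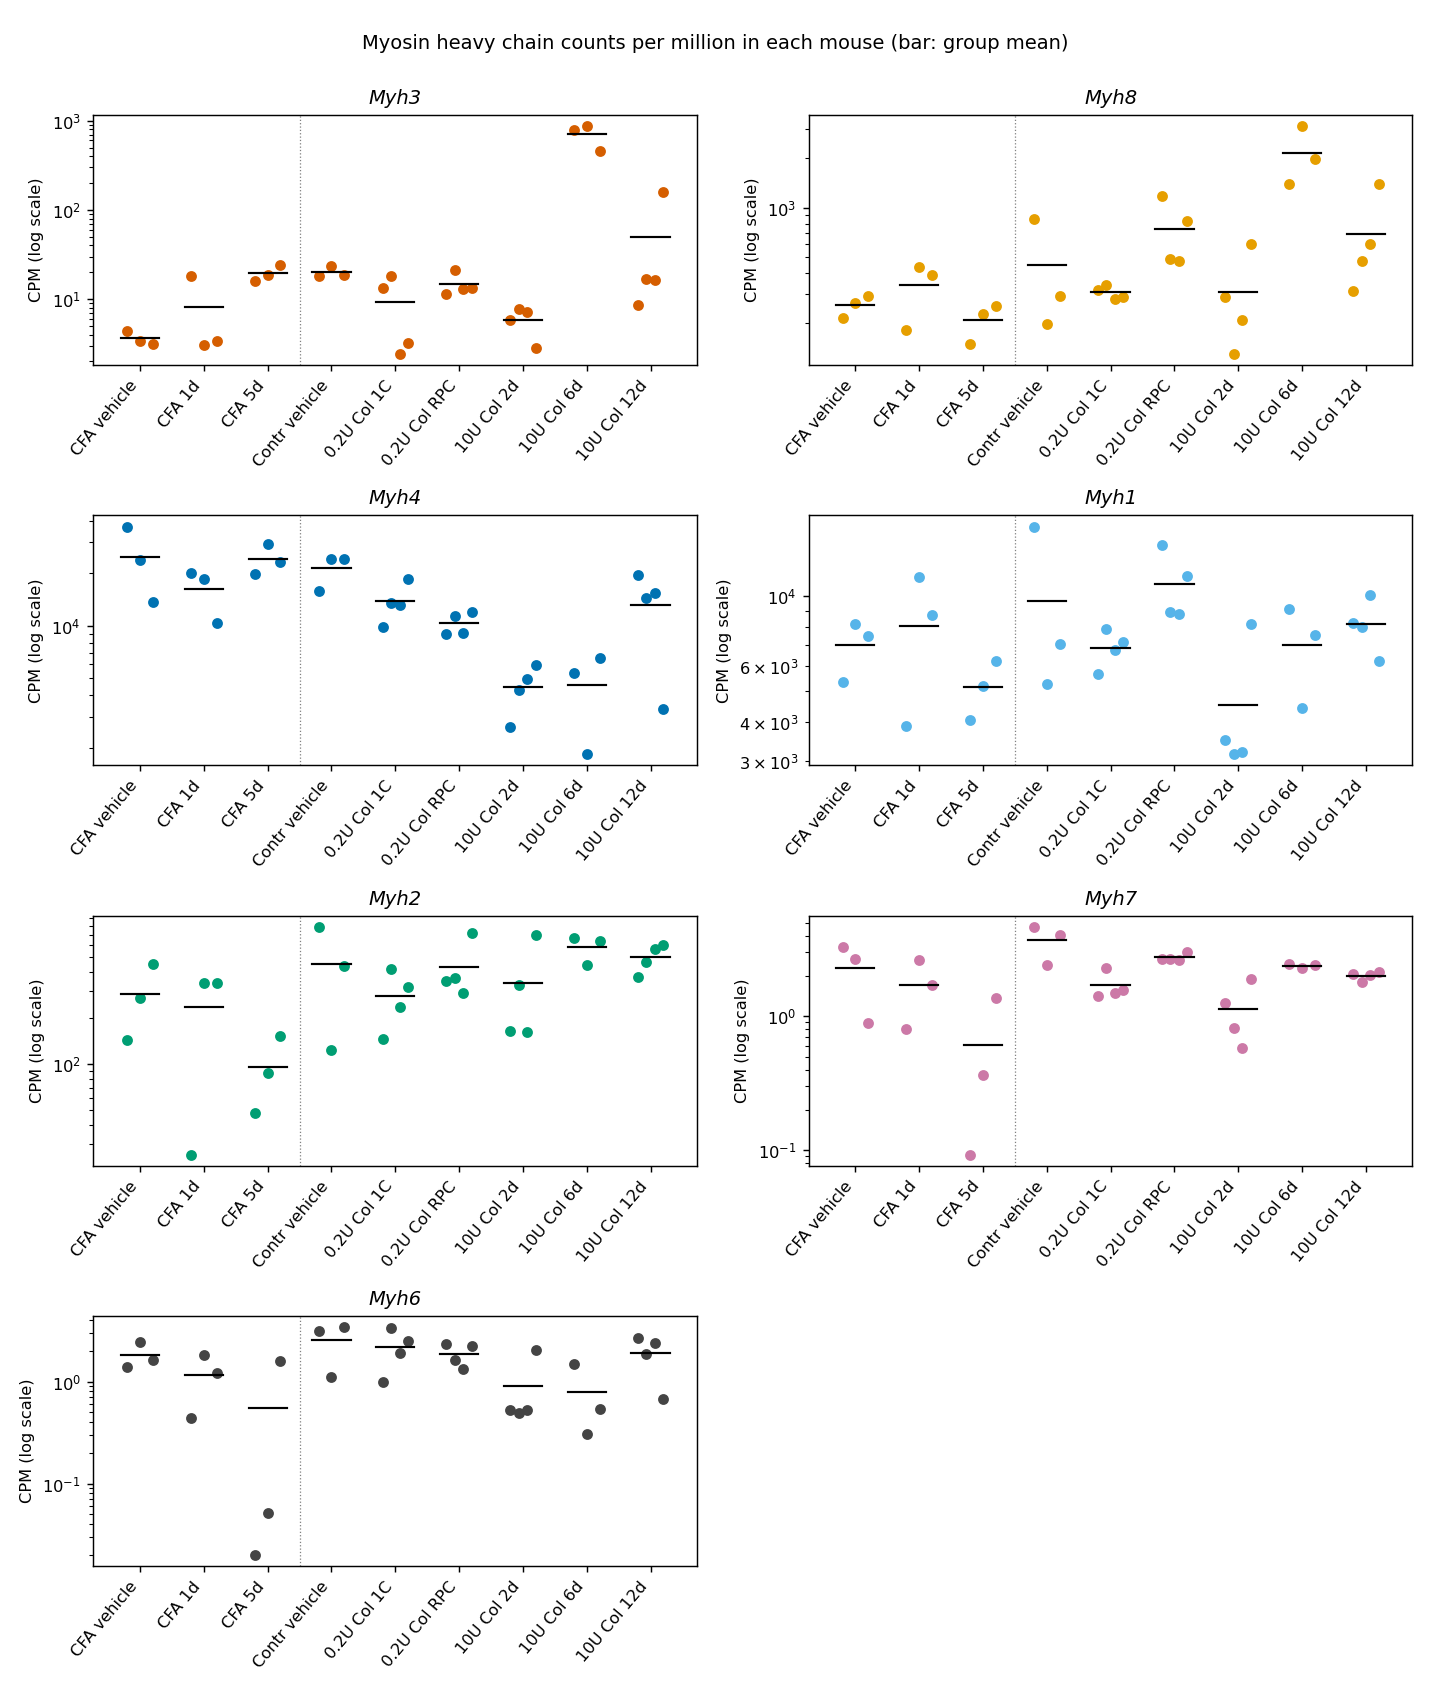
CPM of each of the 7 members on a log10 axis (vertical), for every mouse as a point within its group (horizontal), with the group mean as a bar. Myh3 in the 3 mice of 10U Col 6d (460 to 868 CPM) lies above all other mice, and the Myh6 value of 0 in replicate 1 of CFA 5d is drawn at the lower edge because a log axis has no 0.

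Myh3 was up-regulated 35.1-fold at 6d post-Col (10U) against Contr (95% interval 20.5 to 60.1; log2 fold change 5.14, SE 0.33, n = 3 and 3, adjusted p = 0.000548, edgeR's quasi-likelihood test). In this comparison 27.3% of 14281 tested genes were called at an adjusted p under 0.05, 14% up and 13.3% down, and of the 7 members 2 were called up and 1 down. That even split of all genes holds under TMM: scaled to pan-striated muscle markers, 8297 genes were called up and 307 down. With each of the 6 mice left out in turn Myh3 was called in 6 of 6 fits, with adjusted p from 0.00163 to 0.00435. Over the other alternatives its log2 fold change ranged from 5.02 to 6.19 and it was always called.

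Myh3 was down-regulated at 2d (10U) against the same Contr mice, by −1.76 on the log2 scale (SE 0.33, n = 4 and 3, adjusted p = 0.0483, edgeR), where 2.22% of genes were called (1.14% higher, 1.08% lower). It was the only member called there. This call was lost in 5 of the 7 fits that left out 1 mouse and held without replicate 4 of 2d (−1.54, adjusted p = 0.00245) and without replicate 3 of Contr (adjusted p = 0.0495). Scaled to the counts of pan-striated muscle markers instead of all genes, a scaling added after seeing the data, Myh3 gave −0.48 (adjusted p = 0.367), while the median log2 fold change of all genes moved from 0.02 to 1.23, so that Myh3 stayed below the median gene.

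Directly between days, Myh3 was 119.5-fold higher at 6d than at 2d (log2 6.90, SE 0.44, adjusted p = 0.00103, edgeR), with 8.73% of genes called (4.68% higher, 4.05% lower) and the call present in 7 of 7 fits that left out a mouse. At 12d it was lower than at 6d by −3.80 (SE 1.02, adjusted p = 0.0335), where 26.4% of genes were called (13.4% higher, 13% lower). That call was lost when any mouse other than replicate 4 of 12d was left out, with adjusted p of 0.0617 to 0.109, and without replicate 4 the difference was −5.68 (adjusted p = 0.000338). Against Contr, Myh3 at 12d gave 1.40 (SE 0.98, adjusted p = 0.490), and without replicate 4 the sign turned, to −0.50 (adjusted p = 0.369).

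Myh8, the neonatal chain, was above Myh3 in every mouse, both in counts and per length. It was at 860, 196 and 290 CPM in Contr, 289, 130, 209 and 600 at 2d, 1402, 3128 and 1968 at 6d, and 313, 479, 601 and 1398 at 12d. The 6d mice lay above every Contr and 2d mouse, but replicate 4 of 12d (1398) nearly reached the lowest 6d mouse (1402), and replicate 1 of Contr stood well above its 2 group mates. Myh8 was up-regulated 4.86-fold at 6d against Contr (log2 2.28, SE 0.60, adjusted p = 0.0295, edgeR). This call held in 1 of 6 fits that left out a mouse, the one without replicate 1 of Contr (3.12, adjusted p = 0.0125), and the adjusted p ran from 0.0527 to 0.0982 in the other 5. With the replicate number as a block the adjusted p was 0.0750. Myh8 was also higher at 6d than at 2d (log2 2.79, SE 0.56, adjusted p = 0.0278), in 2 of 7 fits that left out a mouse. Between 12d and 6d the difference was −1.62 (SE 0.53, adjusted p = 0.0552), and −2.23 (adjusted p = 0.00169) without replicate 4 of 12d.

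Myh4, the type IIb chain, had the highest mean level of the 7 in both vehicle groups and was lower at 2d and 6d. It was at 15761, 24247 and 24283 CPM in Contr, 2621, 4304, 4968 and 5975 at 2d, 5379, 1839 and 6497 at 6d, and 19626, 14436, 15428 and 3328 at 12d. No mouse at 2d or 6d reached the lowest Contr mouse, and at 12d 3 of 4 mice were at 14436 to 19626 CPM while replicate 4 was within the 6d range. Myh4 was down-regulated at 6d, 4.69-fold lower than in Contr (log2 −2.23, SE 0.60, adjusted p = 0.0318, edgeR). The call was lost in each of the 6 fits that left out 1 mouse, with adjusted p from 0.0512 to 0.104 and log2 fold changes from −2.56 to −1.84, and with the replicate block (0.0938). At 2d the difference was of like size, −2.24 (SE 0.46, adjusted p = 0.0501), and did not pass. Without replicate 4 of 2d it was −2.43 (adjusted p = 0.00338), and in that fit Myh1 (−1.54), Myh3, Myh6 (−2.29) and Myh7 (−2.06) were called down as well.

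**Figure D3:**
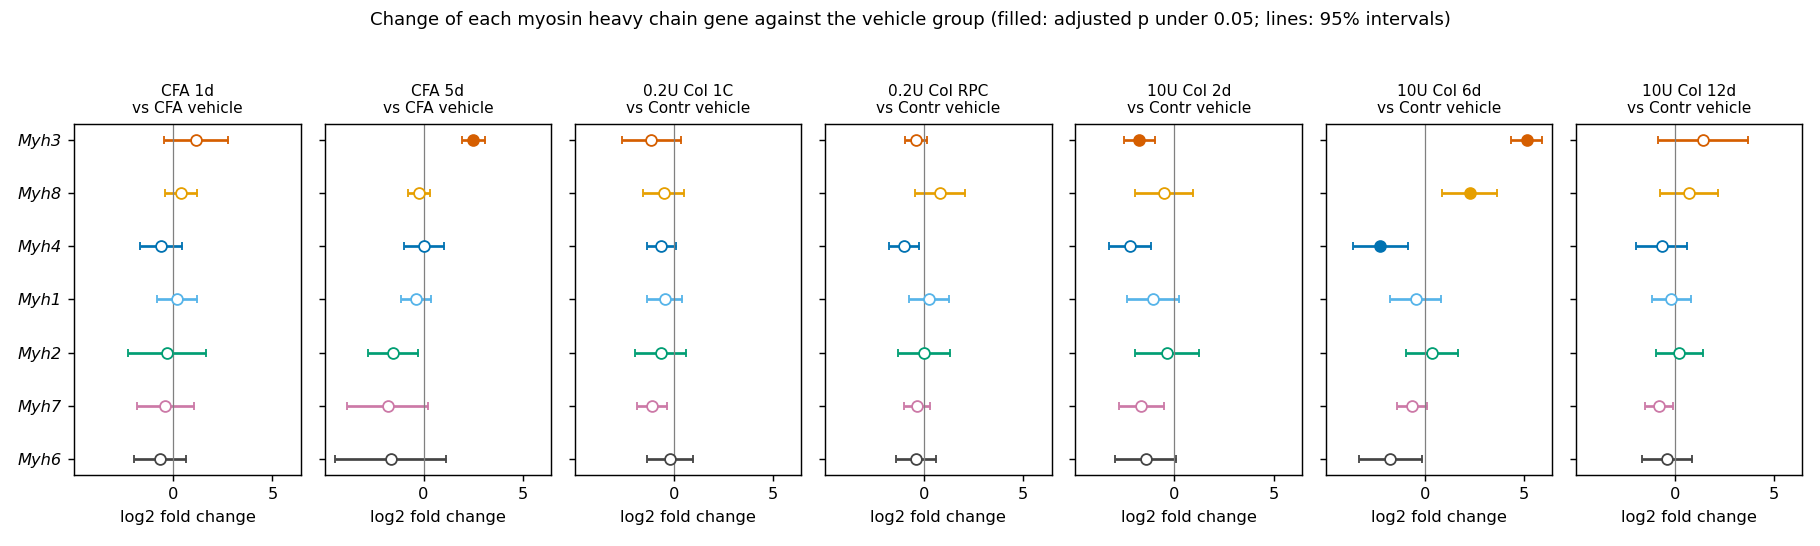
Log2 fold change (horizontal) of each of the 7 members in each comparison, with bars for the 95% interval and filled points for members called by edgeR. Myh3 at 10U Col 6d (5.14) lies farthest from 0 among the comparisons with vehicle, Myh8 (2.28) is on the same side and Myh4 (−2.23) on the opposite side.

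The other adult fast chains did not pass the test at any day of 10U Col. Myh1, the type IIx chain, was at 16631, 5270 and 7067 CPM in Contr, 3501, 3157, 3211 and 8154 at 2d, 9096, 4429 and 7560 at 6d and 8232, 8018, 10118 and 6234 at 12d. The Contr and 6d ranges overlap, and the difference at 6d was −0.44 (SE 0.55, 95% interval −1.73 to 0.84, adjusted p = 0.563). Without replicate 1 of Contr, which had 16631 CPM, it was 0.16. Myh2, the type IIa chain, was at 789, 125 and 440 CPM in Contr and 673, 443 and 637 at 6d (0.38, SE 0.57, 95% interval −0.94 to 1.70, adjusted p = 0.632). Scaled to the pan-striated muscle markers, most tested genes were called higher at 6d, and the median log2 fold change of all genes was 1.02. In that edgeR fit Myh2 was among the genes called higher (1.40, adjusted p = 0.0468), Myh8 gave 3.45, Myh3 6.19 and Myh4 −1.35. The first 3 lay above that median and Myh4 below it.

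The balance between the fast chains varied widely within the vehicle groups. The count of Myh4 was 0.948, 4.60 and 3.44 times that of Myh1 in the Contr mice, 1.82 to 6.91 times in CFA vehicle, and 0.415 to 0.859 times at 6d. Over all 31 mice the ratio ran from 0.415 to 6.91. The highest value at 6d was below the lowest in Contr, by a small margin, since replicate 1 of Contr had almost equal counts.

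Myh7 and Myh6 stayed near the lower limit of detection. Myh7, the slow chain, was at 0.0930 to 4.64 CPM over the 31 mice, at 4.64, 2.41 and 4.03 in Contr and 2.44, 2.30 and 2.42 at 6d. The 6d mice overlapped the lowest Contr mouse, and the difference was −0.63 (SE 0.33, adjusted p = 0.179). Myh6, the alpha-cardiac chain, was at 0 to 3.40 CPM, and at 6d gave −1.72 (SE 0.67, adjusted p = 0.0904). It had 0 counts in replicate 1 of CFA 5d, which allows a share of up to 0.000581% of the 516079 member counts of that mouse. Fewer than 10 counts were seen for Myh6 in 4 libraries and for Myh7 in 2, so differences of these genes were hard to detect at this depth.

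Compared per length, as CPM per 1000 windows of 50 bases found in no other gene, the order in Contr was Myh4 (4429), Myh1 (2185), Myh2 (102), Myh8 (93.6), Myh3 (3.52), Myh7 (0.769) and Myh6 (0.547). Myh4 and Myh1, Myh2 and Myh8, and Myh7 and Myh6 overlapped between mice and were not separated beyond their spread. At 6d post-Col (10U) the order was Myh1 (1590), Myh4 (945), Myh8 (452), Myh2 (132), Myh3 (124), Myh7 (0.497) and Myh6 (0.168). There Myh8 stood above Myh2 in all 3 mice without overlap, Myh3 overlapped Myh2, and Myh1 exceeded Myh4 in 3 of 3 mice although their ranges overlapped. Myh4 was above Myh8 in 2 of 3 mice, with overlapping ranges, and in replicate 2 Myh8 (652) was above Myh4 (380). Myh1 also had the higher mean in 2d and RPC, in 2 of 4 and 3 of 4 mice, while Myh4 led in the 3 groups of the CFA experiment, in 1C and at 12d.

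As shares of the member counts, the developmental chains Myh3 and Myh8 made 12.6%, 37.3% and 14.2% in the 3 mice at 6d, a mean of 21.4% ± 13.8 (SD, n = 3). In Contr they made 0.735% to 2.58% (1.42% ± 1.004, n = 3), at 2d 3.16% ± 1.25 (n = 4), and at 12d 4.71% ± 5.74 (n = 4), where replicate 4 alone had 13.3%. All 6d mice exceeded all Contr and 2d mice, while replicate 4 of 12d lay inside the 6d range. In the remaining groups the mean was 0.893% ± 0.416 in CFA vehicle, 1.42% ± 0.587 at CFA 1d, 0.774% ± 0.134 at CFA 5d, 1.54% ± 0.412 in 1C and 3.28% ± 1.08 in RPC.

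At 6d most of the developmental share was Myh8, with 8.09%, 29.2% and 11.5%, against 4.54%, 8.10% and 2.69% for Myh3. The count of Myh8 was 1.78 to 4.27 times that of Myh3 in these mice, while the median over all 31 mice was 29.4 times. The share of Myh4 at 6d was 31.02%, 17.2% and 37.9%. Shares of Myh2, Myh3, Myh4, Myh7 and Myh8 at 6d did not overlap those of Contr, each with an exact two-sided permutation p of 0.1, the smallest that 3 against 3 mice can give. In CPM, 3 of 7 members did not overlap between 6d and Contr, against 47% of all tested genes. Over the 49 tests of shares (7 members, 7 groups against vehicle) the smallest Benjamini-Hochberg adjusted p was 0.6125.

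**Figure D4:**
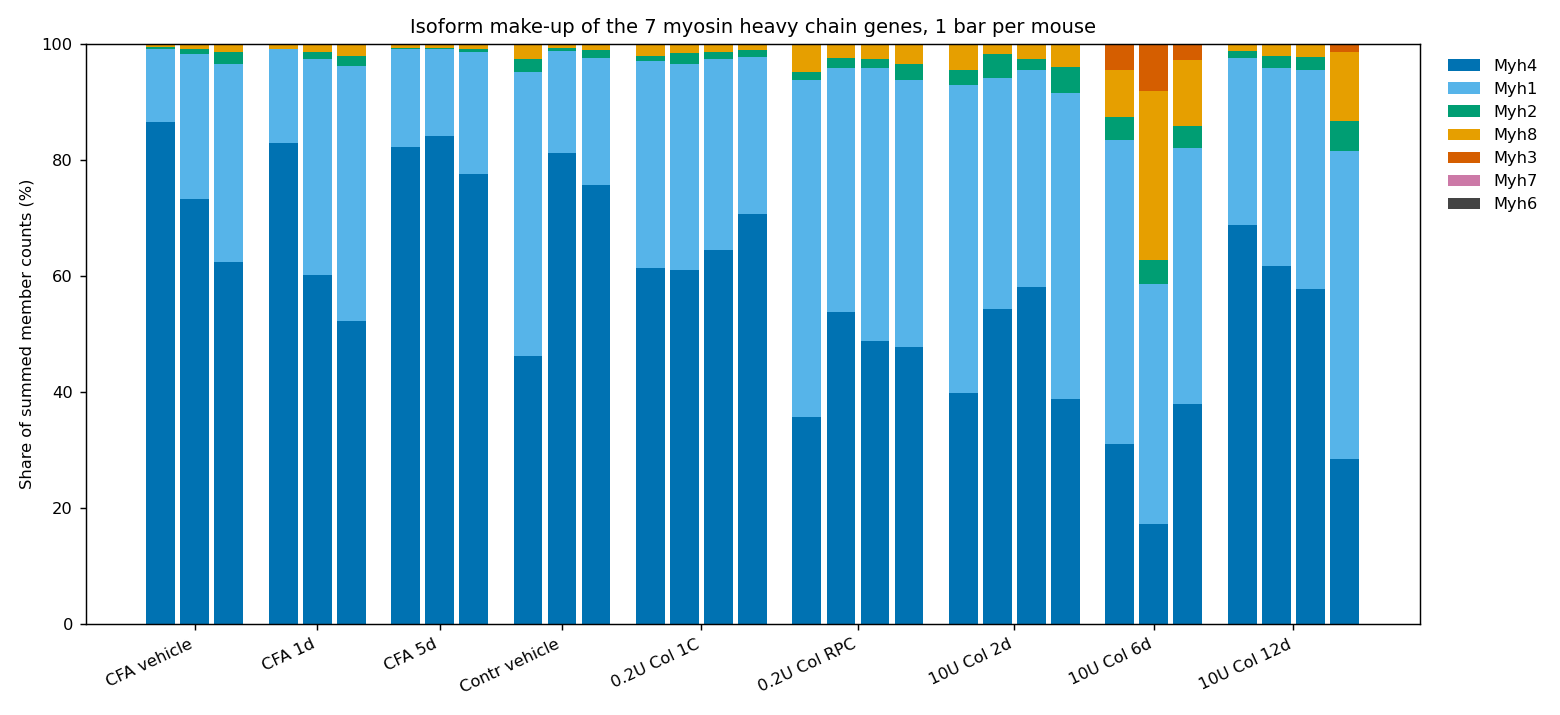
Share of the summed counts of the 7 members (vertical, percent) taken by each member in each of the 31 mice (horizontal, ordered by group), as stacked bars that sum to 100. The Myh3 and Myh8 segments together reach 12.6% to 37.3% in the 3 mice of 10U Col 6d and 13.3% in replicate 4 of 10U Col 12d.

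In the CFA experiment, 0 members were called at 1d, where edgeR called 0 genes (0%), 588 genes had an unadjusted p under 0.05 and DESeq2 called 56. None of the members had an unadjusted p under 0.05 and DESeq2 called none. Myh3 gave 1.16 (SE 0.69, adjusted p = 0.924), and −0.18 without replicate 1, the mouse with 17.9 CPM. At 5d post-CFA Myh3 was up-regulated 5.68-fold against CFA vehicle (log2 2.51, SE 0.24, adjusted p = 0.0186, edgeR), with 1.11% of genes called (1.06% higher, 0.0428% lower), and the groups did not overlap (16.1 to 24.3 against 3.11 to 4.42 CPM). It was called in 2 of 6 fits that left out a mouse, those without replicate 1 of CFA 5d (0.0409) and without replicate 3 of CFA vehicle (0.000216), with adjusted p from 0.0572 to 0.119 in the others. In a single fit of all 31 libraries the adjusted p was 0.180, with the salivary marker score as a covariate, added after seeing the data, 0.617, and with both vehicle groups pooled the difference was 0.77 (adjusted p = 0.724). The other 6 members did not pass at 5d. For Myh2, at 47.9, 87.0 and 154 CPM against 144, 269 and 453, edgeR gave −1.53 (SE 0.54, adjusted p = 0.258), DESeq2 an adjusted p of 0.0253 and edgeR with the replicate block 0.0416.

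The vehicle groups themselves differed in Myh3, which was 5.61-fold higher in Contr than in CFA vehicle (log2 2.49, SE 0.26, adjusted p = 0.0474, edgeR), 1 of 6 genes called (0.0426%). The call was lost in each of the 6 fits that left out a mouse and with the replicate block, which gave an adjusted p of 0.394. The Contr range of 18.0 to 23.6 CPM lay inside that of CFA 5d (16.1 to 24.3). Salivary gland markers were high in all CFA 5d mice and in some Contr mice, and beyond the covariate fit their part in these differences was not tested.

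The rises of Myh3 at 6d post-Col (10U) and at 5d post-CFA, each against its own vehicle group, differed by 2.62 on the log2 scale (SE 0.37, adjusted p = 0.00349, edgeR's test of the difference), where 11.3% of genes were called (4.34% higher, 6.96% lower). This held in 12 of 12 fits that left out a mouse, while with the salivary covariate the difference was 2.48 (SE 1.64, adjusted p = 0.492). For Myh8 the difference was 2.51 (SE 0.68, adjusted p = 0.0395), in 2 of 12 such fits, those without replicate 1 of Contr (0.00329) and without replicate 1 of CFA vehicle (0.0495), and with the block it was 0.0714.

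With 0.2U Col no member passed. In 1C, edgeR called 0 genes (0%), with 1819 at an unadjusted p under 0.05 and 519 called by DESeq2. Among the members 1, Myh7, had an unadjusted p under 0.05, and DESeq2 called 0. Myh3 in 1C gave −1.12 (SE 0.65), with 2 mice at 13.2 and 17.9 CPM and 2 at 2.44 and 3.24. In RPC edgeR again called 0 genes (0%), with 1923 at an unadjusted p under 0.05 and 443 by DESeq2. Myh4 in RPC was at 8930, 11439, 9136 and 12050 CPM, below all 3 Contr mice, and gave −1.01 (SE 0.32, adjusted p = 0.295 by edgeR), while DESeq2 called it at an adjusted p of 0.00201. At 12d of 10U Col edgeR called 0 members of 7 in a comparison with 1.23% of genes called (0.762% higher, 0.466% lower), while 1, Myh7, had an unadjusted p under 0.05 and DESeq2 called 0. Beyond the 6d comparison, members whose CPM did not overlap between groups numbered 0 of 7 at CFA 1d (6.22% of all tested genes did not overlap), 1 at CFA 5d (Myh3, 19.9%), 2 in 1C (Myh3 and Myh7 lower, 9.76%), 1 in RPC (Myh4 lower, 12.2%), 3 at 2d (Myh3, Myh4 and Myh7 lower, 23.9%) and 1 at 12d (Myh7 lower, 17.1%). Between 6d and 2d it was 3 (Myh3, Myh7 and Myh8 higher, 23.7%), between 12d and 6d 3 (the same genes lower, 36.5%) and between Contr and CFA vehicle 1 (Myh3, 5.07%). The comparisons of 0.2U and 10U Col groups with vehicle share the 3 Contr mice.

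The genes that work beside these chains were taken from lists of known fibre components. Of 10 partners of developing and regenerating muscle, 9 were up-regulated and 0 down-regulated at 6d post-Col (10U), with a median difference of 6.74 in log2, where that of all genes was 0.01 and 14% of all genes were called up. Tmem8c, the fusion protein myomaker, was at 120, 111 and 61.9 CPM at 6d against 0.0906 to 0.455 in Contr, and Gm7325, myomixer, was at 28.8, 30.8 and 20.5 CPM against 0 to 0.0652. Chrng, the fetal subunit of the acetylcholine receptor, was at 89.8, 195 and 110 CPM against 0.0906 to 0.273. These 3 genes were near 0 in Contr and passed the filter of 10 counts in 3 libraries only through the 6d mice. Their calls were thus largely set by the filter. The count of 9 and the median are therefore a description, and the 14% of all genes is not a like measure for them. At 2d, 2 of the 10 were called up and 1 down (1.14% and 1.08% of all genes), and at 12d 0, where replicate 4 had 35.3 CPM of Tmem8c against 0.664 to 4.59 in its group mates. Myog, the transcription factor of myoblast differentiation, was the 1 of 6 myogenic regulators called at 6d, and rose by 5.14 (SE 0.38, adjusted p = 0.000899, edgeR), from 8.06, 8.16 and 3.35 CPM to 215, 278 and 191. At 2d Myog was at 93.9, 69.3, 103 and 15.1 CPM, all above every Contr mouse although Myh3 was below Contr in the same mice, and at 12d at 11.5, 9.90, 21.3 and 88.3 CPM.

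Of 10 fast fibre partners, 0 were called up and 3 down at 6d (median −1.35), where 27.3% of all genes were called and 13.3% were down. The count called in either direction is near that of all genes, while all 3 calls were down, a larger share than the 13.3%. Whether 3 of 10 exceeds that share was not tested. The 3 were Mybpc2, fast myosin-binding protein C (−2.01, adjusted p = 0.0291), Tnni2, fast troponin I (−1.47, adjusted p = 0.0402) and Tnnc2, fast troponin C (−1.43, adjusted p = 0.0474). At 2d 0 were called up and 2 down (median −1.91), with 2.22% of all genes called. Slow fibre partners gave 7 called up and 0 down of 10 at 6d (median 1.45), led by the slow troponins Tnni1 (6.39, SE 0.65, adjusted p = 0.00213), Tnnt1 (5.49) and Tnnc1 (4.88), although Myh7, the slow chain itself, did not pass. Tnni1 was at 204, 222 and 85.8 CPM at 6d against 0.652 to 3.64 in Contr, and the slow troponins are also known from developing muscle. Among the 12 fibre type regulators 3 were called, a share near the 27.3% of all genes: Prox1 (1.66, adjusted p = 0.0250) and Mef2a (1.44, adjusted p = 0.0126) rose and Eya1 fell, by −0.93 (adjusted p = 0.0406).

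The following counts at 6d stand beside the same 27.3% of all genes. Of 8 genes of myosin folding and thick filament assembly, 2 rose and 1 fell: Mybph, myosin-binding protein H (5.27, adjusted p = 0.00217), Myom3 (1.83, adjusted p = 0.0456) and Myom1 (−1.05, adjusted p = 0.0392), the latter pair being M-band proteins. Other sarcomeric heavy chains did not pass (0 of 3), with Myh13, the extraocular chain, at −1.70 (adjusted p = 0.0741) and Myh15 at −0.99 (adjusted p = 0.513). Among 4 smooth and non-muscle heavy chains Myh10 rose by 1.12 (adjusted p = 0.0421) and Myh11, the smooth muscle chain, fell by −2.01 (adjusted p = 0.00485). Of the 9 pan-striated muscle markers 0 were up and 2 down, Ckm (−2.04, adjusted p = 0.0320) and Tcap (−1.67, adjusted p = 0.0152), with a median of −0.44.

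Markers of other cells were also called at 6d, where 14% of all genes were called up and 13.3% down. All 5 macrophage markers were up (median 2.80, led by Mpeg1 at 3.80, Cd68 at 3.38 and Emr1 at 2.80), as was 1 of 5 fibroblast markers, Col3a1 (2.24). Salivary gland markers were called down in 4 of 4 tested (7 listed), Dcpp1, Pip and Smr3a among them. Keratinocyte markers were called down in 3 of 3 tested (5 listed), Krt14, Krt5 and Krt10. The same held for neutrophil markers in 2 of 4 tested (5 listed), S100a9 and S100a8, and adipocyte markers in 1 of 5 (Lep). The 1 of 5 of the fibroblast and of the adipocyte markers is near the shares of all genes. Of heart chamber markers 0 of 2 tested passed (5 listed), Tnni3 and Myh7b included. Listed markers that were not tested had no counts under their symbol or were below the count filter. Between 12d and 6d, developmental partners were called down in 4 of 10 and slow partners in 2 of 10, and 1 of 10 fast partners was called up. In that comparison 13% of all genes were called lower and 13.4% higher, and scaled to pan-striated muscle markers 4 genes were called in all.

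**Figure D5:**
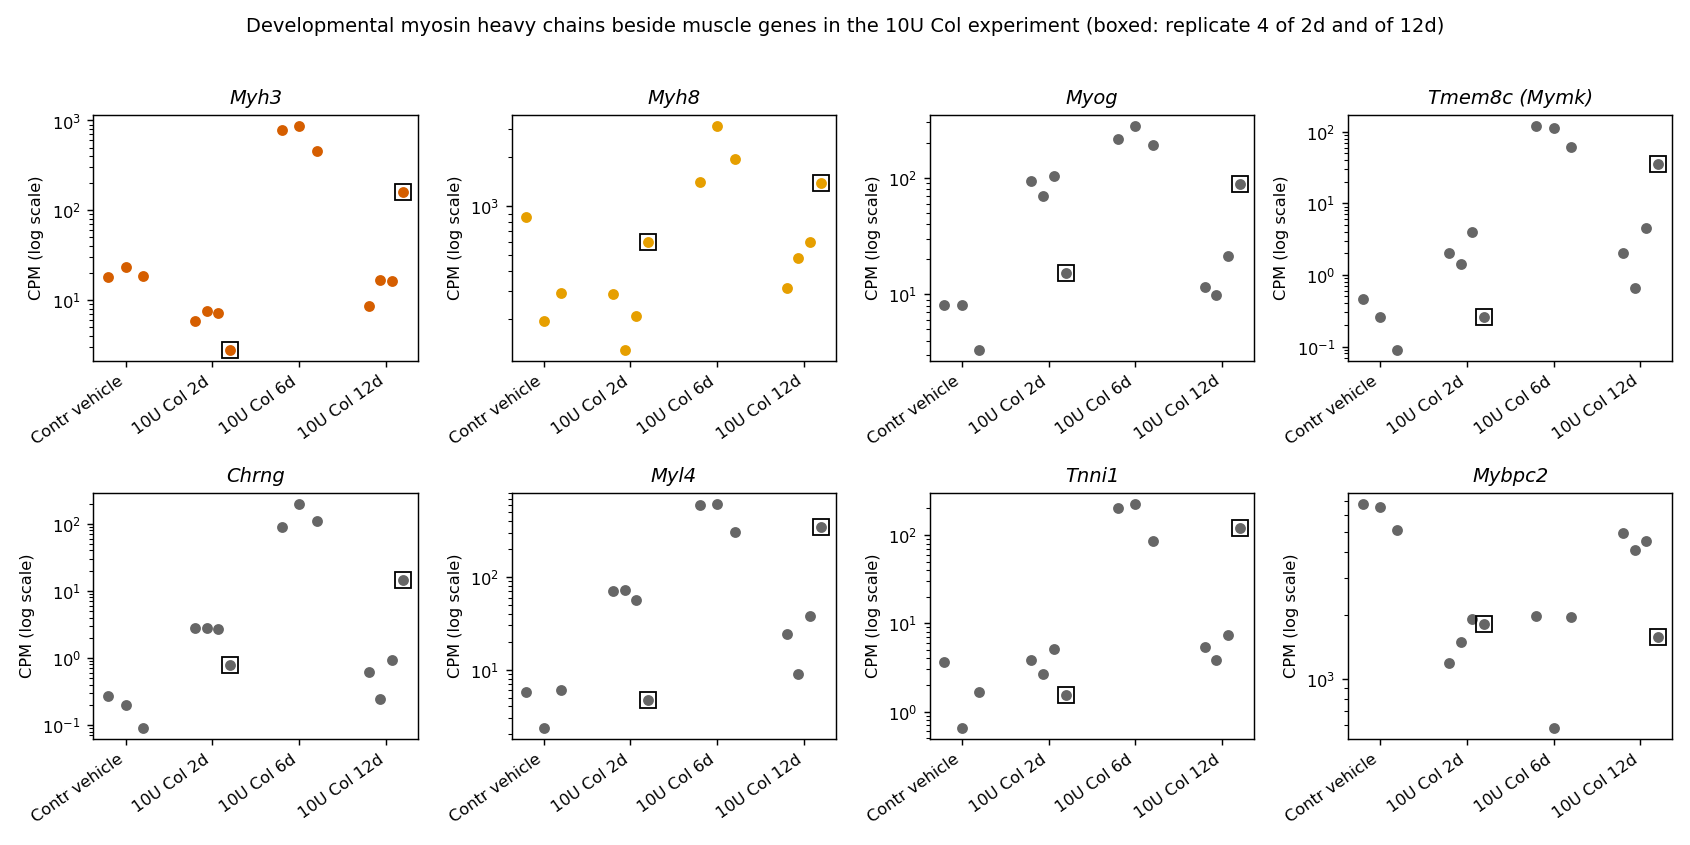
CPM on log axes (vertical) of Myh3, Myh8, Myog, Tmem8c, Chrng, Myl4, Tnni1 and Mybpc2 in Contr and 10U Col 2d, 6d and 12d (horizontal), with each point a mouse and boxes around replicate 4 of 2d and of 12d. The 3 mice at 6d are highest for Myog (191 to 278 CPM) and below all Contr mice for the fast partner Mybpc2, and replicate 4 of 12d lies between 6d and its group mates for Myog (88.3 CPM).

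The genes whose log2 CPM followed each member most closely over the 31 libraries are given as a description, since the libraries share conditions and composition. Myh4 had the tightest company, Mybpc2 (Pearson's r 0.959, Spearman's rho 0.928), Pcx, Phkg1, Tnnc2 and Tnnt3 (r 0.932), a set that holds 3 fast contractile proteins and 2 enzymes of energy metabolism. Without the 3 mice at 6d, r for Mybpc2 was 0.945. Those most like Myh3 were Ppfia4 (r 0.870, rho 0.555), Gzmd, R3hdml, Capn6 and Cd83 (r 0.850). Their likeness rested in large part on 6d, since r for Ppfia4 was 0.588 over the 28 other libraries. Ppfia4 was at 33.5, 32.7 and 16.1 CPM at 6d and 19.6 in replicate 4 of 12d, and at 2.29 to 6.30 in the 27 others.

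For Myh8 the closest were Fam49a (r 0.850), Casq2, the slow calsequestrin (r 0.846), A430110N23Rik, Pamr1 and Arpp21 (r 0.836). For Myh1 they were Mdga1 (r 0.830), A830010M20Rik, Esr1, Evc and Nova1, and for Myh2 Gm1078 (r 0.801), Zfp72, Tnik, Mtrf1l and Mamdc2. The pair of cardiac chains had each other and the other sarcomeric chains among the closest: Myh6 went with Myh13 (r 0.917), Myh7b, 1190003K10Rik, Myl10 and Myh7 (r 0.783), and Myh7 with Myh7b (r 0.814), Myh6, Myl10, Myh13 and Cryba4. Counts of Myh6 and Myh7 were low, so these values carry counting error, and the exchange of reads between paralogs was not tested. Most of these rankings moved with the measure: of the 5 genes named per member, 0 to 3 were also among the closest 5 by Spearman's rho and 0 to 3 without the CFA experiment, and for Myh7 it was 0 in both. Without the CFA experiment r between Myh6 and Myh7 was 0.538. Among the members, Myh3 and Myh8 had r 0.681 but rho 0.326, Myh4 and Myh8 had r −0.53, and Myh1 and Myh2 had r 0.636.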

How the data were processed

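Poly(A) RNA was read by the authors as 50-base single ends from a strand-marking kit and aligned to mm9 with TopHat2, and they deposited raw counts per gene symbol. HTSeq and bcl2fastq are named in the submitters' processing notes without versions, and the strand setting of the counting is not given in the sources used here. Lines of reads assigned to no gene were left out; not uniquely aligned reads came to 59.3% to 114% of gene counts.

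Genes reaching 10 counts in 3 or more of the compared libraries were fitted across the whole table with edgeR 4.0.16 in R 4.3.3 (TMM, quasi-likelihood test, group as the only factor, libraries of the compared groups), and p-values were adjusted by Benjamini-Hochberg over all tested genes. A call is an adjusted p under 0.05. Shares were compared by exact two-sided permutation. No pair of 465 library pairs held identical values (highest r 0.9956 in log2 CPM). Nothing in the labels ties samples beyond 1 mouse each. The p-values of edgeR set a group difference against the spread between mice, which the fit moderates with that of all genes. Intervals of fold changes come from edgeR's fits and hold the spread between mice, while the limit for a count of 0 covers counting error only.

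The members and gene lists were chosen with earlier results of these data known. Named genes are the members, up to 3 called genes with the largest change per list at 6d (or the 2 with the smallest p), and the 5 genes most correlated with each member. Annotation was GENCODE vM1. Same-numbered mice deviated together in every pair (r over 0.1) for CFA 1d against CFA vehicle (mean r 0.337) and Contr against CFA vehicle (mean r 0.332), the numbers being those of the titles; with that block edgeR called 1 gene and 0 members, and 0 genes and 0 members. On simulated counts with 200 genes changed by 2 in log2, 152 were recovered for 6d, 150 for 2d and 148 for CFA 5d. Wrong calls were 19 of 171 calls for 6d, 7 of 157 for 2d and 15 of 163 for CFA 5d. For 6d and CFA 5d this was a larger share than the adjusted p threshold of a call, and for 2d it was not. Each was 1 draw, with levels and spread taken from the vehicle mice only and fewer changed genes than were called at 6d. It therefore cannot grade the calls of one comparison against another. Calls with an adjusted p close to the threshold remain uncertain in every comparison.

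Alternatives were DESeq2 1.42.0, its size factors, no filter, the study's thresholds, 1 fit of 31 libraries, pooled vehicles, the replicate block, exon length, and each mouse left out. A salivary covariate and scaling to pan-striated muscle markers were added after seeing the data.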

Additional observations from a re-analysis of the deposited data

Results flagged for a closer look

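Single mice far from their group were looked for in 56 sets of 4 mice (the gap to the nearest mouse against the range of the group), and 9 were found. Chance alone picks about 1 in 20 such sets when they are independent and normally distributed. These sets are levels and shares of the same genes in the same mice, so the 9 cannot be set against that rate. Of these, 6 were levels: Myh3 in replicate 4 of 10U Col 12d (159 CPM), Myh1 (8154 CPM) and Myh6 (2.06 CPM) in replicate 4 of 10U Col 2d, Myh2 (717 CPM) and Myh7 (3.04 CPM) in replicate 4 of 0.2U Col RPC, and Myh7 in replicate 2 of 0.2U Col 1C (2.29 CPM). The other 3 were shares of the member counts in replicate 4 of 10U Col 12d: Myh3 (1.35%), Myh8 (11.9%) and Myh7 (0.0182%).

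Changes that differed between 10U Col at 6d and CFA at 5d, by edgeR's test of the difference with adjustment over all genes, were those of Myh3 (2.62 in log2, adjusted p = 0.00349, 3 of 3 mice higher than their vehicle group in both experiments) and Myh8 (2.51, adjusted p = 0.0395, 3 of 3 mice at 6d above all Contr mice). Of all tested genes, 47% did not overlap between 6d and Contr and 19.9% between CFA 5d and CFA vehicle. The call of Myh3 held in 12 of 12 fits that left out a mouse. That of Myh8 held in 2 of 12 such fits and was lost with the replicate block. With the salivary covariate neither was called.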

How the results depend on the processing

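Counts of genes and members called moved by more than 1.5 times or changed side as follows. In 1 fit of 31 libraries, genes numbered 38 (CFA 5d), 137 (1C), 4943 (2d), 778 (12d) and 57 (Contr against CFA vehicle), and members 0 (CFA 5d), 3 (2d), 3 (12d against 6d), 0 (vehicles) and 1 (difference of changes). DESeq2 called 56 (CFA 1d), 899 (CFA 5d), 519 (1C), 443 (RPC), 3326 (2d), 902 (12d), 2707 (6d against 2d), 65 (vehicles) and 2764 genes (difference), and 2 (CFA 5d), 1 (RPC), 3 (2d) and 3 members (12d against 6d). Its size factors in edgeR gave 60 genes at CFA 5d and 2 members at 2d. Pooled vehicles gave 0 (CFA 5d), 287 (1C), 17 (RPC), 5043 (2d), 5875 (6d) and 450 genes (12d), and 0 members at CFA 5d. The study's thresholds gave 2195 (6d), 114 (12d), 755 (6d against 2d) and 1389 genes (12d against 6d).

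Same-numbered mice deviated together in every pair only in the comparisons named with the processing, and elsewhere the samples share only a number (mean r −0.12 at 6d). With the replicate block, genes were 1 (CFA 1d), 1 (1C), 10 (RPC), 4500 (2d), 1473 (6d), 43 (12d), 2208 (6d against 2d), 7056 (12d against 6d) and 0 (vehicles), and members 2 (CFA 5d), 4 (2d), 1 (6d), 4 (12d against 6d), 0 (vehicles) and 1 (difference). Scaling to pan-striated markers gave 0 (CFA 5d), 2 (1C), 9435 (2d; 9369 up), 8604 (6d; 8297 up), 52 (12d), 4 (12d against 6d), 0 (vehicles) and 298 genes (difference), and 0 members at CFA 5d, 12d against 6d and between vehicles, and with it the median gene moved to 1.23 at 2d. With the salivary covariate genes were 0 (CFA 5d), 287 (1C), 4856 (2d), 637 (12d), 332 (6d against 2d), 44 (vehicles) and 47 (difference), and members 0 (CFA 5d), 2 (2d), 1 (6d against 2d), 3 (12d against 6d), 0 (vehicles) and 0 (difference). With shares per exon length the developmental share was 0.473% (CFA vehicle), 0.766% (CFA 1d), 0.434% (CFA 5d), 0.834% (1C), 1.80% (RPC) and 1.73% (2d).

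Leaving out 1 mouse, genes ranged over 0 to 19 (CFA 1d), 0 to 2162 (CFA 5d), 0 to 202 (1C), 0 to 1 (RPC), 12 to 5143 (2d), 809 to 5835 (6d), 41 to 600 (12d), 126 to 4105 (6d against 2d), 234 to 7687 (12d against 6d), 0 to 12 (vehicles) and 563 to 2658 (difference), and members over 0 to 1 (CFA 5d), 0 to 5 (2d), 1 to 2 (6d), 1 to 4 (6d against 2d), 0 to 4 (12d against 6d), 0 to 0 (vehicles) and 1 to 2 (difference).

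Signs turned for Myh3 at CFA 1d (pooled vehicles −0.57; −0.18 to 1.55 leaving out a mouse), RPC (pooled 0.36, pan-striated scaling 0.12) and 12d (block −0.54; −0.50 to 1.74), for Myh1 at 6d (pan-striated scaling 0.61; −0.76 to 0.16), Myh2 at 6d (−0.079 to 1.014) and Myh7 at 6d (pan-striated scaling 0.37), none of them called in the reported fits. Share differences against pooled vehicles turned in sign for Myh3 and Myh7 at CFA 1d (−0.00359 and −0.00217 percentage points), Myh2 and Myh3 in 1C (0.0671 and 0.00948) and Myh7 at 12d (0.00117). The causes were not tested. Myh6 had under 10 counts in 4 libraries and Myh7 in 2. The 5 genes most like each member moved in all 14 comparisons of rankings.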

Other observations

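The summed counts of the 7 members were 214 to 518 per 1000 counts of the pan-striated muscle markers over the 31 mice. Per 1000000 counts of those markers, Myh3 had 25.7 to 24884 counts and Myh8 had 1805 to 89700.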
